A study of Rattus norvegicus with 2 samples.

Results

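Transcripts of the tumour necrosis factor (TNF) superfamily were examined in the nucleus tractus solitarius (NTS), where visceral sensory nerves, including those from baroreceptors, end in the brainstem. The members were all array genes named Tnf, Lta, Ltb, Ltbr, Fas, Faslg or Cd40, or named Tnfsf, Tnfrsf or Tnfaip followed by a number. The rule used names and no measured value, and it gave 43 of 26334 gene names, covered by 47 probes and 74 spots. Of these, 14 encode ligands and 22 encode receptors. The other 7 are Tnfaip genes, named for their induction by TNF or for likeness to such a gene, and they are neither ligands nor receptors of the family.

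Both groups were Wistar Kyoto rats, a normotensive inbred strain, aged 9 weeks, with no treatment named in the labels. RNA of 5 males made 1 pool and RNA of 5 females made the other, and each was run on a single-colour Agilent array of its own. With 1 array per sex there was no replicate and no test, and the spread between rats was lost in the pools. Differences are log2 values, female minus male, taken after each array was set relative to its 75th percentile signal, which was 3441 for the males and 3380 for the females. Signals of different probes are not on a common scale, so every difference compares a probe with itself across the arrays, and a sum over a marker list serves only to set the same probes side by side in the pools.

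TNF superfamily ligands are trimeric proteins, most of them made on the cell surface and some released by proteases, and they act by clustering their receptors. Receptors with a cytoplasmic death domain can start caspase-driven cell death through adaptor proteins. Most others recruit TRAF adaptors and lead to activation of NF-kappaB and of MAP kinases. In the brain, TNF is made mainly by microglia and also by astrocytes and neurons, and it is known to modify synaptic strength as well as inflammation.

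The tissue carried the transcripts of its region on both arrays. All 8 measured genes of a dorsal vagal hindbrain list were well above background, the scanner software's call for a spot that stands clear of its background. Among them Dbh, which encodes the enzyme that makes noradrenaline, read 34745 in the male pool and 32900 in the female pool. Over the arrays, 85.5% of male and 87.9% of female rat spots were well above background, and 0 were saturated. Technical error was taken from probes spotted several times, as the SD of their spots' differences. It was 0.31 log2 units for probes more than 64-fold below the 75th percentile, 0.15 for those 16-fold to 64-fold below, 0.089 for 4-fold to 16-fold below and 0.069 for brighter probes. This spot SD leaves out differences between rats and between labelling reactions.

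Probes of Tnfrsf13c, Tnfsf18 and Tnfaip3 are shown because these genes had a difference or a bound of at least 2-fold, and those of Fas because its probes disagreed in size. Bases 1 to 30 of each probe, which has 60 bases, are shown 5′ to 3′ as the array files give them, with the first longest run of G and C in capitals.
Tnfrsf13c: ttggaaaagaaaagaattcaaCCCttcagt
Fas, first probe: ttcgtgaaaCCGacaacaactgctcagaag
Fas, second probe: tgcattagaattttataccaggagctGGGa
Tnfsf18: tgaagaCCatattcagaaaagtaatacata
Tnfaip3: ttactGCaatgagtgctaccagttcaagca
In the rn4 build named by the files, the Tnfrsf13c probe lies at chr7:120596455-120596514 on the minus strand and the Tnfsf18 probe at chr13:77145179-77145238 on the plus strand. The Fas probes lie at chr1:238259523-238259582 and chr1:238274686-238274745 on the plus strand. The files place the Tnfaip3 probe on no chromosome. Of the 47 member probes, 0 shared a stretch of 20 bases with a probe of another gene.

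Most of the family was measurable in both pools. Of the 43 genes, 34 (79.1%) were well above background on both arrays, beside 80.5% of all genes on the arrays. Another 2 were well above background on the female array only, Tnfsf14 and Tnfsf18, where the share over all genes was 3.74%. Tnfaip3 alone was well above background on the male array only, where the share over all genes was 0.596%. The remaining 6 were at background on both arrays: Tnfsf10, Tnfsf11, Tnfrsf8, Tnfrsf10b, Tnfrsf17 and Tnfrsf18 (15.1% of all genes). In bulk tissue, fewer cells of a type and less RNA per cell cannot be told apart.

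**Figure D1:**
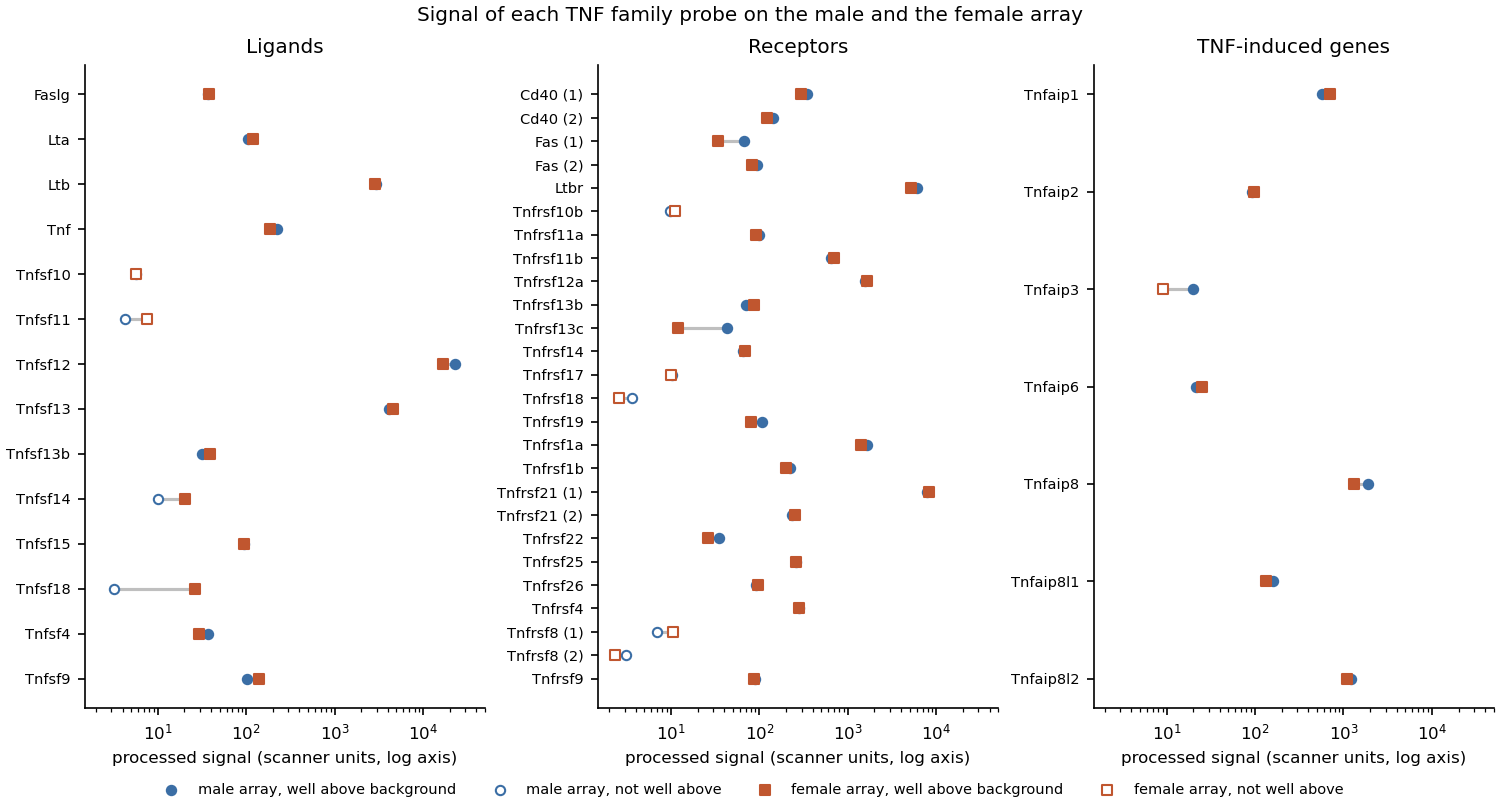
Processed signal of every TNF family probe in the male pool (circles) and the female pool (squares), in scanner units on a log axis, with open symbols for probes not well above background. Most pairs of symbols overlap, while Tnfrsf13c, Tnfsf18, Tnfsf14, Tnfaip3 and the first Fas probe are drawn apart.

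For 32 of the 34 measured members the pools differed by less than 0.5 log2 units. The median difference of the 34 was 0.0027, beside -0.013 over the 21200 genes measured on both arrays, and 18 differences were positive, that is higher in the female pool, and 16 negative. Over all genes 53.9% were lower in the female pool. A difference of 2-fold or more towards the female pool was found for 0 members, beside 0.142% of all genes, and towards the male pool for 1, Tnfrsf13c, beside 0.538%. Differences of over 2 spot SDs numbered 4 towards the female pool (11.8% of the 34, beside 7.29% of all genes) and 8 towards the male pool (23.5%, beside 12.8%). The other 22 members lay within 2 spot SDs, and 12 of these within 1.

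**Figure D2:**
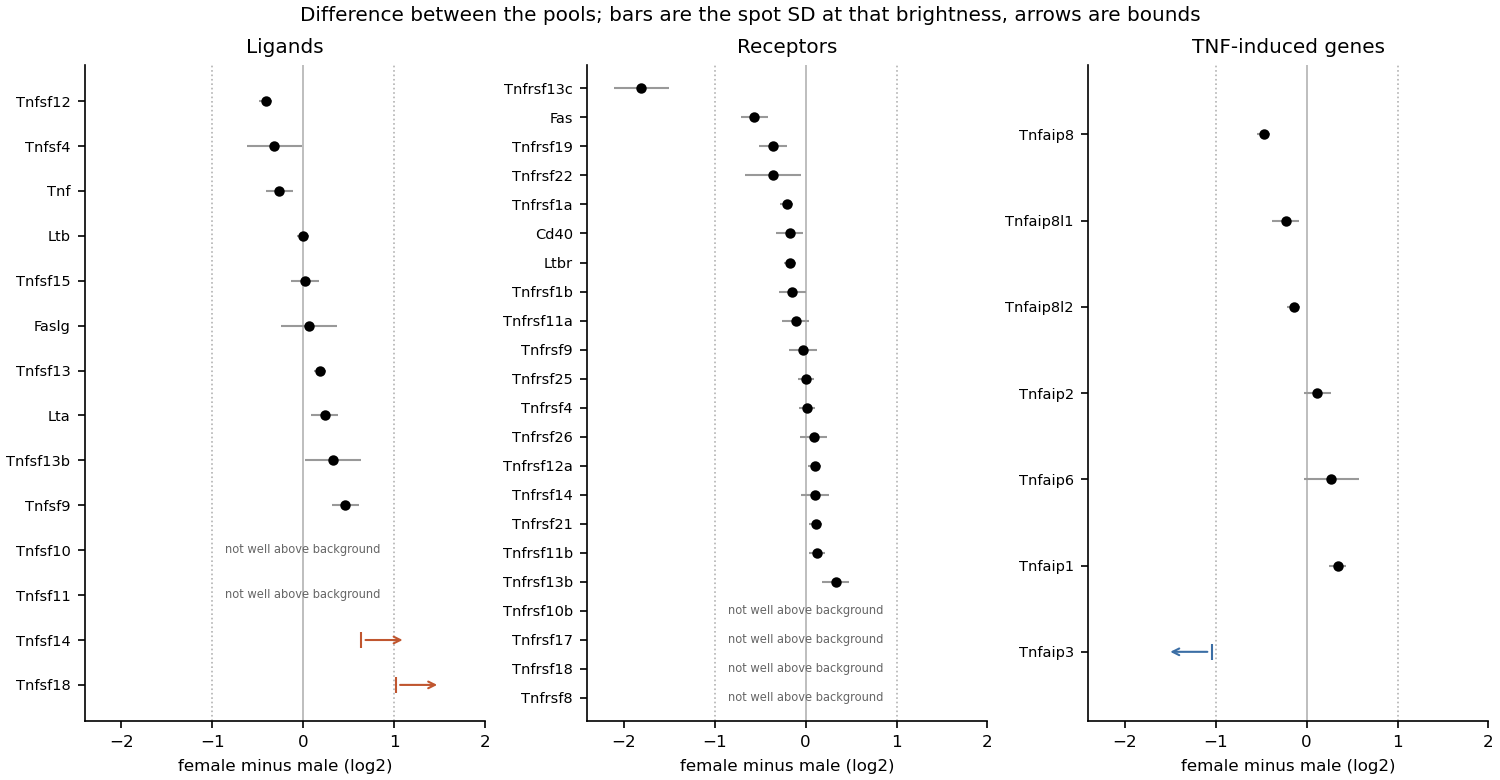
Female minus male difference of each member on the log2 scale, with bars of 1 spot SD for a probe of that brightness and arrows for the bounds of genes well above background on 1 array. Dotted lines mark 2-fold: Tnfrsf13c at -1.81 lies beyond them, and 32 of the 34 measured members lie within 0.5 of 0.

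Among the 14 ligand genes, 10 were measured in both pools, with a median difference of 0.045 and a range from -0.41 to 0.47. The difference was positive in 7 and negative in 3 (30%, beside 53.9% of all genes). Differences over 2 spot SDs favoured the female pool in Tnfsf9 and Tnfsf13 (20%, beside 7.29% of all genes). They favoured the male pool in Tnfsf12 (10%, beside 12.8%).

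Tnfsf12 encodes TWEAK, a ligand that acts on many non-immune cells through Fn14. Its signal was 23005 in the male pool and 16982 in the female pool, a difference of -0.41 with a spot SD of 0.069. The lower female signal was thus several spot SDs from 0. Tnfsf13 encodes APRIL, a survival factor of plasma cells, and its probe lies only 3.144 kb from that of Tnfsf12 on rn4 chromosome 10. It read 4117 in the male pool and 4605 in the female pool, a difference of 0.19 in the opposite direction. This exceeded 2 spot SDs, but no longer did with outlier spots kept.

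Tnfsf9, the 4-1BB ligand and a costimulator of T cells, gave the largest positive difference among the measured members. Its signal was 102 in the male pool and 139 in the female pool, a difference of 0.47 with a spot SD of 0.15. Tnfsf13b encodes BAFF, a survival factor of B cells, and read 31.5 in the male pool and 38.8 in the female pool. Its difference of 0.33 was about the spot SD of 0.31 at that brightness. Tnfsf4, the OX40 ligand of antigen-presenting cells, read 37.2 and 29.4, a difference of -0.31 that was likewise about 1 spot SD.

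The founding genes of the family lie side by side, with probes 3.755 kb and 3.092 kb apart in the order Lta, Tnf, Ltb on rn4 chromosome 20. Tnf itself read 224 in the male pool and 184 in the female pool, a difference of -0.26. Lta, which encodes the secreted lymphotoxin alpha, read 104 and 121, a difference of 0.24. Both were under 2 spot SDs of 0.15, and they pointed in opposite directions. Ltb encodes the membrane-bound partner of lymphotoxin alpha, and its signals of 2926 and 2875 gave a difference of 0.00065. Tnfsf15, known as TL1A and a costimulator of T cells, was also level at 95.0 and 94.7, a difference of 0.022.

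Faslg, the ligand that triggers death through Fas, was spotted several times. Over its 9 retained spots the signal ran from 30.8 through a median of 37.1 to 45.5 in the male pool, and from 34.3 through 37.3 to 46.7 in the female pool. The spots of the pools overlapped, and the difference was 0.067 with an SD of 0.27 over its own spots. Tnfsf10, which encodes the death ligand TRAIL, was not well above background. Its 9 retained spots ran from 3.98 through 5.42 to 8.87 in the male pool and from 2.16 through 4.97 to 8.69 in the female pool.

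**Figure D3:**
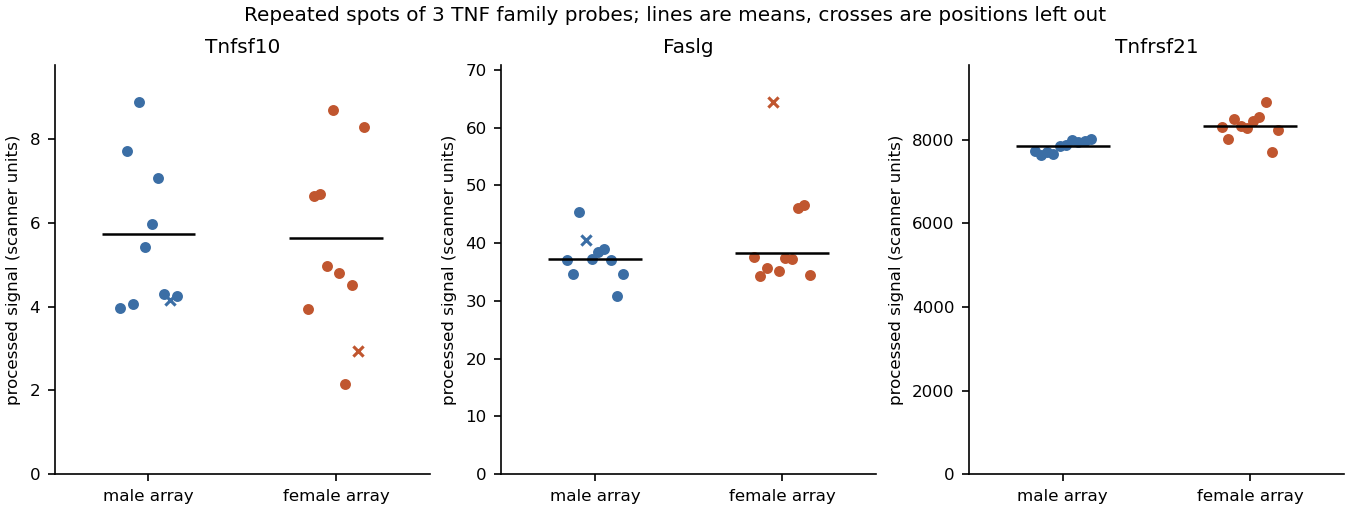
Processed signal of each spot of the Tnfsf10, Faslg and first Tnfrsf21 probes on the male and the female array, in scanner units, with lines at the means and crosses for positions left out because the software called an outlier there on 1 of the arrays. Spots of the pools overlap for Tnfsf10 and Faslg, and the female mean of Tnfrsf21 is the higher by 0.11 log2 units.

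Tnfsf18 encodes the ligand of GITR, a receptor of regulatory T cells. Its single spot read 3.19 in the male pool, not well above background, and 26.2 in the female pool, with scanner error estimates of 3.18 and 3.51. The female level was at least 2.03-fold higher, measured against the lowest signal that counted as well above background on the male array. Among the 985 genes well above background on the female array only, 5.48% had a bound of 2-fold or more. Tnfsf14, known as LIGHT and a ligand of Ltbr and Tnfrsf14, read 9.97 and 20.1, and its female level was at least 1.56-fold higher. Tnfsf11, the osteoclast factor RANKL, read 4.30 and 7.56, not well above background in either pool.

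Measured spots and family genes near Tnfsf18 lay closer to 0. Within 5 rows and columns of its spot, 61 spots were well above background on both arrays and not called outliers. These had a median difference of 0.053, and 0 of them differed 2-fold in either direction. A spot dark on the male array, like that of Tnfsf18 itself, could not be among them. Whether other spots nearby were dark on that array was therefore not tested. On rn4 chromosome 13, Tnfsf4 lies 95.061 kb from Tnfsf18 and was lower in the female pool by less than 2 spot SDs, as given above. Faslg lies 327.758 kb to the other side, with a difference of 0.067.

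Among the 22 receptor genes, 18 were measured in both pools, with a median difference of -0.069 and a range from -1.81 to 0.33. The difference was positive in 8 and negative in 10 (55.6%, beside 53.9% of all genes). Over 2 spot SDs, 5 were higher in the male pool, Fas, Tnfrsf1a, Ltbr, Tnfrsf19 and Tnfrsf13c (27.8%, beside 12.8% of all genes). In the female pool 1 was, Tnfrsf13b (5.56%, beside 7.29%).

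The death domain receptors comprised 5 genes, of which 4 were measured in both pools, with a median difference of -0.10. Tnfrsf1a, the receptor for soluble TNF found on most cells, read 1665 in the male pool and 1417 in the female pool. The difference was -0.21 with a spot SD of 0.069. Tnfrsf21 encodes DR6, a receptor studied for its part in axon pruning. The 10 spots of its first probe ran from 7640 through 7860 to 8016 in the male pool and from 7694 through 8317 to 8891 in the female pool, and its second probe read 236 and 250. The difference was 0.11 by either probe, and in the first its SD over the 10 spots was 0.060. All female spots of the first probe but the lowest, 7694, read above the highest male spot, 8016. At the spot SD of 0.069 for its brightness class the gene lay under 2 spot SDs. Tnfrsf25, the receptor of TL1A, read 262 and 258, a difference of 0.0049. Tnfrsf10b, the receptor of TRAIL, read 9.78 and 11.03, not well above background in either pool.

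Fas, the receptor that starts death when bound by Fas ligand, was measured by 2 probes that disagreed in size. The first, which starts at base 164 of its transcript, read 67.2 in the male pool and 33.9 in the female pool, a difference of -0.96 with a spot SD of 0.31. The second starts at base 2494 and read 93.1 and 81.6, a difference of -0.16 with a spot SD of 0.15. Both were lower in the female pool, and the median of the probes, taken as the gene's value, was -0.56. The gap between them was 0.80, and among genes with 2 counted probes 5.26% had a gap of 0.5 or more. The cause of the gap was not tested.

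The receptors without a death domain comprised 14 genes, of which 11 were measured in both pools, with a median difference of -0.11. Ltbr, the lymphotoxin beta receptor of stromal and myeloid cells, read 5983 in the male pool and 5221 in the female pool, a difference of -0.17 with a spot SD of 0.069. Tnfrsf19, known as TROY and expressed by neural progenitors, read 106 and 81.3, a difference of -0.36 with a spot SD of 0.15. Both exceeded 2 spot SDs towards the male pool. The call on Ltbr was lost when the arrays were scaled by their medians, and also with outlier spots kept. Tnfrsf1b, the TNF receptor prominent on immune and endothelial cells, read 224 and 199, a difference of -0.15. Cd40, the costimulatory receptor of antigen-presenting cells, read 342 and 295 by one probe and 141 and 124 by the other, differences of -0.19 and -0.17. The Cd40 probes therefore differed little from each other. At the spot SD of 0.15 for the gene's mean level the difference stayed under 2 spot SDs, while the first probe alone, with a spot SD of 0.089, lay just beyond them.

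Tnfrsf13c, the BAFF receptor of B cells, was the member furthest apart. Its single spot read 42.9 in the male pool and 12.1 in the female pool, with scanner error estimates of 5.29 and 2.55. Both readings were well above background, and the female level was lower by 3.50-fold, a difference of -1.81 with a spot SD of 0.31. Before background subtraction the mean signals were 94.6 and 62.5 over local backgrounds of 34.5 and 34, and with normexp, another background correction, the difference was -0.52. It thus stayed negative but was no longer 2-fold. The offset of 50 that was added there to both signals draws dim spots together, so the loss of 2-fold cannot decide about this spot. Against the spot SD recomputed there, 0.099, the difference stayed over 2 spot SDs. Among all genes of the dimmest brightness class, 1.69% were 2-fold or more higher in the male pool, and 1 of the 6 members of that class was.

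The spot of Tnfrsf13c also lies in a band of array rows where dim spots brighter on the male array were frequent. Such bands were 5 of 20, held 25.5% of the rat spots and covered 10 members, 23.3% of the family. Besides Tnfrsf13c these were Tnfrsf11a, Tnfrsf11b, Tnfrsf13b, Tnfrsf14, Tnfsf4, Tnfsf11, Tnfaip1, Tnfaip2 and Tnfaip3. Around the Tnfrsf13c spot, 100 spots within 5 rows and columns were well above background on both arrays and not called outliers. Of these, 2 were brighter on the male array by at least 2-fold, 0 were so on the female array, and the median difference was 0.072. The part of the band in the result was not tested beyond these values.

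Among transcripts of B cells, Cd79b was level between the pools and Ms4a1 was at background. Of 5 listed B cell genes on the array, 3 were measured in both pools, with a median difference of -0.021. Cd79b, a part of the B cell receptor, read 20.1 in the male pool and 19.4 in the female pool. Ms4a1, which encodes CD20, read 3.75 and 4.30, not well above background. The summed level of the list was 23.8% of the 75th percentile signal in the male pool and 32.8% in the female pool, a sum made up mostly of Pax5 (718 and 1017), a gene also known from the developing midbrain and hindbrain. Their part in the Tnfrsf13c result was not tested.

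The other BAFF and APRIL receptors are Tnfrsf13b and Tnfrsf17. Tnfrsf13b, known as TACI, read 69.9 in the male pool and 86.4 in the female pool, a difference of 0.33 with a spot SD of 0.15. It was the receptor over 2 spot SDs towards the female pool, but with normexp the difference was 0.15 and under 2 of the spot SDs recomputed there, and its spot lies in one of the 5 outlying bands. Tnfrsf17, the plasma cell receptor BCMA, read 10.2 and 10.1, not well above background in either pool.

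The remaining costimulatory and tissue receptors lay close in the pools. Tnfrsf12a, the TWEAK receptor Fn14, read 1580 in the male pool and 1663 in the female pool, a difference of 0.099. Tnfrsf4, the T cell receptor OX40, read 284 and 282, and Tnfrsf9, the T cell receptor 4-1BB, read 90.4 and 87.2. Their differences were 0.016 and -0.027. Tnfrsf14, known as HVEM and expressed by many leukocytes, read 65.7 and 69.3, a difference of 0.10. Tnfrsf11a, the receptor RANK of osteoclast precursors, read 100.2 and 91.2, a difference of -0.11. All 5 lay under 2 spot SDs. Tnfrsf18, the receptor GITR, read 3.64 and 2.57 and was not well above background. Tnfrsf8, the lymphocyte receptor CD30, was at background by both of its probes, at 6.93 and 10.5 by one and 3.14 and 2.31 by the other.

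All 3 decoy or atypical receptors were measured in both pools. Tnfrsf11b encodes osteoprotegerin, a secreted decoy for RANKL, and read 643 in the male pool and 691 in the female pool, a difference of 0.13. Tnfrsf22 and Tnfrsf26 are rodent receptors with probes 49.177 kb apart on rn4 chromosome 1. Tnfrsf22 read 34.6 and 26.6, a difference of -0.36 with a spot SD of 0.31, and Tnfrsf26 read 92.4 and 96.4, a difference of 0.087. None of these exceeded 2 spot SDs.

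Of the 7 Tnfaip genes, 6 were measured in both pools, with a median difference of -0.011. Tnfaip8, a regulator of cell death and lipid signalling, read 1877 in the male pool and 1330 in the female pool, a difference of -0.47 with a spot SD of 0.069. Its relative Tnfaip8l2, known as TIPE2 and a brake on immune cells, read 1226 and 1092, a difference of -0.14, and Tnfaip8l1 read 159 and 133, a difference of -0.23. Tnfaip8 and Tnfaip8l2 exceeded 2 spot SDs and Tnfaip8l1 did not. The call on Tnfaip8l2 was lost under several other settings, normexp among them, its difference lying just past the threshold. Tnfaip1, an adaptor of a ubiquitin ligase, went the other way at 568 and 707, a difference of 0.34 with a spot SD of 0.089. Its single spot lies in one of the outlying bands described for Tnfrsf13c. With outlier spots kept the spot SD was 0.17, and the call was lost.

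Tnfaip3 encodes A20, the ubiquitin-editing brake on NF-kappaB. Its single spot read 20.1 in the male pool and 9.05 in the female pool, with scanner error estimates of 3.73 and 2.50, and the female reading was not well above background. The male level was at least 2.06-fold higher. Among the 157 genes well above background on the male array only, 61.8% had a bound of 2-fold or more, so the size of this bound was common among such genes. The spot lies in one of the 5 array bands described for Tnfrsf13c. The 101 spots near it that were well above background on both arrays had a median difference of -0.0073, with 0 differing 2-fold. A spot dark on 1 array, like that of Tnfaip3 itself, could not be among them. Tnfaip2, which takes part in membrane protrusion, read 91.5 and 97.6, a difference of 0.12. Tnfaip6, a hyaluronan-binding protein of inflamed matrix, read 21.5 and 25.5, a difference of 0.27 within 1 spot SD.

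**Figure D4:**
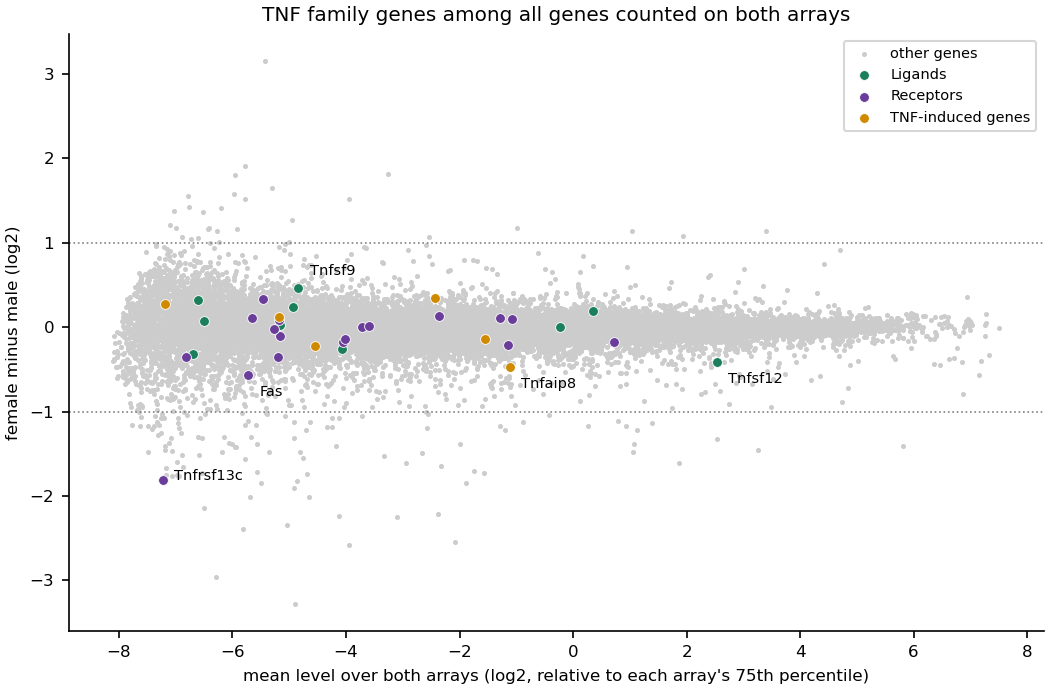
Female minus male difference (log2) against mean level over both arrays (log2, relative to the 75th percentile) for 21200 genes measured on both arrays in grey, with the 34 measured members in colour and dotted lines at 2-fold. All measured members but Tnfrsf13c, at -1.81, lie between the dotted lines.

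Ligands were then set beside their known receptors. Of 21 pairs, 13 had both sides well above background in both pools. The ligand was short of this in 6 pairs, the receptor in 4 and both in Tnfsf10 with Tnfrsf10b and in Tnfsf18 with Tnfrsf18. Among the complete pairs, 5 had the same sign on both sides. In 1 pair, Tnfsf13 (0.19) with TACI (0.33), both sides exceeded 2 spot SDs. With outlier spots kept both lost this call, and TACI lost it with normexp as well. In the other complete pairs at least 1 side lay under 2 spot SDs. BAFF was at 0.33 beside TACI at 0.33 and Tnfrsf13c at -1.81, and Tnf was at -0.26 beside Tnfrsf1a at -0.21 and Tnfrsf1b at -0.15. TWEAK (-0.41) exceeded 2 spot SDs where its receptor Fn14 (0.099) did not.

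The intracellular pathway was present, with a small median difference. Of 81 listed genes, 76 were on the array and 69 were measured in both pools. Their median difference was -0.077, beside -0.013 over all genes. It was positive in 24 and negative in 45 (65.2%, beside 53.9% of all genes), and 0 were 2-fold apart in either direction. Differences over 2 spot SDs numbered 5 towards the female pool (7.25% of the 69, beside 7.29% of all genes) and 11 towards the male pool (15.9%, beside 12.8%). These shares over 2 spot SDs were near those of all genes, while the share of negative differences was higher.

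Among adaptors and kinases, 21 of 22 genes on the array were measured in both pools, with a median of -0.10. The TRAF family member Traf4 read 296 in the male pool and 242 in the female pool, a difference of -0.27, and Faf1, a Fas-associated protein, read 3428 and 3963, a difference of 0.23. All 20 caspases and brakes on death were measured, with a median of -0.051. Casp8, the first caspase of the death receptor pathway, read 37.5 and 28.0, a difference of -0.40 with a spot SD of 0.31. Birc3, the ubiquitin ligase cIAP2, read 131 and 98.2, a difference of -0.40 with a spot SD of 0.15. Itch, a ubiquitin ligase, read 68.2 and 85.5, a difference of 0.35 with a spot SD of 0.15. Of these, Birc3 exceeded 2 spot SDs towards the male pool and Itch towards the female pool, and Casp8 did not.

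All 13 NF-kappaB genes on the array were measured, with a median of -0.11. Ikbkg, the NEMO subunit of the IKK complex, read 35.8 in the male pool and 21.1 in the female pool, a difference of -0.74. Nfkbiz, a nuclear regulator of NF-kappaB target genes, read 30.3 and 19.0, a difference of -0.65. At this brightness the spot SD was 0.31, and both differences exceeded 2 of these. The 5 shedding genes had a median of 0.069. Adam17, the protease that releases TNF, read 256 and 272, a difference of 0.11. Rhbdf2 and Rhbdf1, which encode rhomboid-like partners of ADAM17, read 287 and 246 (-0.20) and 1277 and 1409 (0.17), both over 2 spot SDs and in opposite directions.

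NF-kappaB target genes were the least detected, with 10 of 16 measured in both pools and a median of -0.084. Il6, Cxcl1, Ccl20 and Mmp9 were not well above background in either pool. Sele and Ptgs2, 2 of the 16, were well above background in the female pool only, beside 3.74% of all genes. Ptgs2 read 11.6 in the male pool and 14.8 in the female pool, and Sele, with 2 probes, read 10.1 and 11.7. The dimmest probe given this call read 13.1 for the males but 9.59 for the females. These calls therefore cannot tell a difference in expression from the unequal limits. Cxcl2, a neutrophil chemokine, read 14.2 in the male pool and 19.9 in the female pool, a difference of 0.52 with a spot SD of 0.31. Nos2, the inducible nitric oxide synthase, read 146 and 188, a difference of 0.39, and Il1b, the inflammatory cytokine interleukin-1 beta, read 90.0 and 73.4, a difference of -0.27. Nos2 was the target gene over 2 spot SDs towards the female pool. Junb, at 2437 and 2118, was the one towards the male pool, with a difference of -0.18 and a spot SD of 0.069. Of the 10 measured, 2 were positive and 8 negative (80%, beside 53.9% of all genes).

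**Figure D5:**
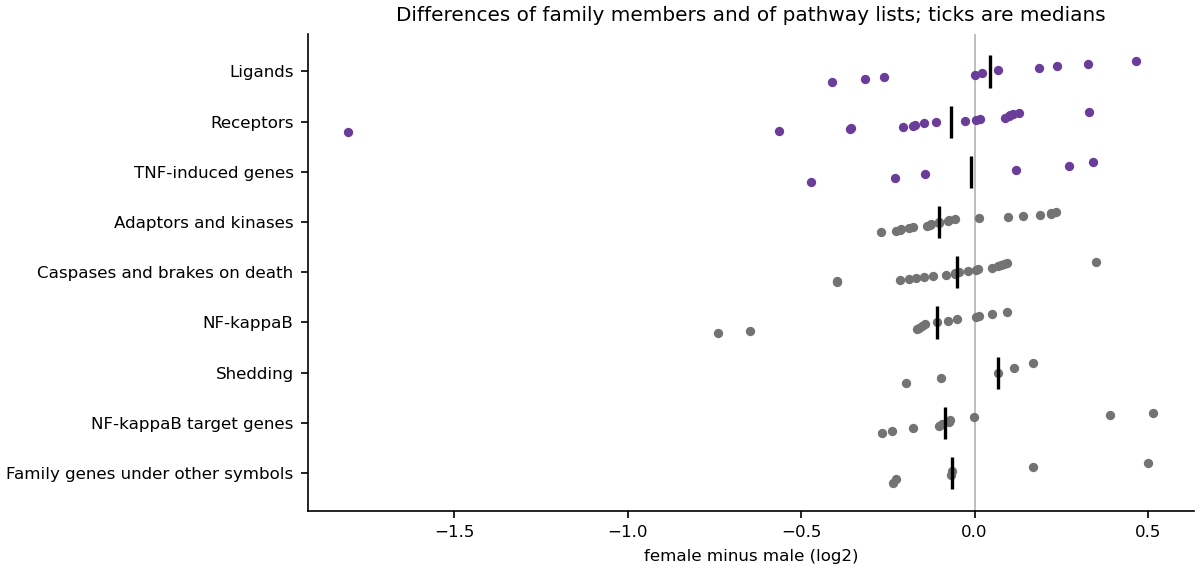
Female minus male difference (log2) of each gene measured in both pools, for the members by class (purple) and for lists of pathway and related genes (grey), with ticks at the medians. The medians of these lists run from -0.11 to 0.069, and Tnfrsf13c at -1.81 is the point furthest from 0.

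Transcripts of cells that carry the family also differed between the pools. Of 11 microglia and macrophage genes, 8 (72.7%, beside 53.9% of all genes) had a negative difference, the median was -0.11, with a summed level of 2289% of the 75th percentile signal in the male pool and 2189% in the female pool. Neutrophil genes measured in both pools were lower in females in 5 of 5 cases, their median was -0.76, with a summed level of 40.0% against 24.3%, while the neutrophil protease gene Elane was not well above background. Of 6 genes of meninges and fibroblasts, 5 were lower in the female pool. The median of the 6 was -0.23 and the summed level 1091% against 642%, most of it from Col1a2 alone (31761 and 16663). All 6 astrocyte genes were lower in the female pool (beside 53.9% of all genes), with a median of -0.12 and a summed level of 1952% against 1782%. The difference was positive in 6 of 7 endothelial genes (median 0.071) and in 4 of 6 oligodendrocyte genes (median 0.19). Towards the male pool, 5 of 11 microglia and macrophage genes and 5 of 5 neutrophil genes exceeded 2 spot SDs. So did 3 of 6 meningeal and fibroblast genes and 3 of 6 astrocyte genes, beside 12.8% of all genes. Towards the female pool 2 of 7 endothelial and 3 of 6 oligodendrocyte genes did, beside 7.29% of all genes. In each of these lists 0 did so the other way. Of 8 T and NK cell genes, 5 were measured, with a median of 0.099 and a summed level of 25.1% against 24.8%, and Cd3e and Cd2 were not well above background. The part of these cells in the differences of Ltbr, Tnfrsf1a, Fas, Tnfaip8, Tnfaip8l2 and the other members was not tested.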

How the data were processed

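The deposited intensity values are those of 2 single-colour Agilent arrays (Feature Extraction 10.7.3.1 in the file headers, 9.1 in the submitters' processing notes). The scanner software had subtracted background from the intensity and detrended it within an array, per the file headers, with no scaling between arrays. A deposited value table held the same intensity values on a linear scale, times 1 factor per array, with medians of 28.0 (male) and 27.3 (female).

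Here log2 processed signal was set relative to each array's 75th percentile over rat spots, and spots of a probe were averaged. Controls and 430 spots called outliers on either array, 2 of them of members, were left out. Probes well above background on both arrays were counted and summarised per gene by their median. A gene well above background on 1 array has a bound, set against the higher of its own signal and the lowest signal well above background on the other array, 13.1 (male) or 9.59 (female). Spot SDs are the root mean square over 60, 104, 245 and 914 repeated probes from the dimmest to the brightest class. Of the 43 members, 37 rest on a single spot. All 43 symbols are in the RefSeq table of GRCr8, but the accessions of 8 of 47 probes, those of Tnfrsf13c, Tnfsf18 and Tnfaip3 among them, had no match there, and for these the name in the array files was kept. Exon and UTR annotation was not used here. The values of 1 marker gene are not reported here.

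The members, the lists and the rule for named genes (all members, and from each pathway list up to 3 genes with the largest differences) were chosen with earlier results of these data known. Junb was named in addition to this rule. The alternatives were other scalings, removal of the trend with brightness (loess, span 0.3), normexp (offset 50, limma 3.58.1), the value table, 3 further filters on probe brightness, outlier calls ignored, the brightest probe, thresholds of 1.5-fold and 3-fold, bands of array rows left out, and ligands and receptors only. The steps were tested on simulated data in Python 3.11.15. The number of arrays limits the precision.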

Additional observations from a re-analysis of the deposited data

How the results depend on the processing

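No paired analysis was possible because there is 1 array per sex. Scaling by the spike-ins adds a constant of 0.67 to every difference, so it moved the median of all genes to 0.66, that of the members from 0.0027 to 0.68 and that of the pathway genes from -0.077 to 0.60. The members' median stayed 0.016 above that of all genes. Through the constant 15 of 34 members changed sign and 4 exceeded 2-fold towards the female pool, against 0. Under the other alternatives the members' median ran from -0.14, over the 9 brighter than the median probe, to 0.037, and 29 of 34 kept their sign. The exceptions, all near 0, were Faslg, Tnfrsf25, Tnfrsf4, Tnfrsf9 and Tnfsf15. The pathway median was 0.00047 over its 36 genes brighter than the median probe. Members at least 2-fold towards the female pool numbered 2, Tnfsf18 and Tnfsf14, when genes well above background on at least 1 array were admitted, and 2 with no filter. These counts take a male reading that is not well above background at its value, whereas the bound for Tnfsf14 is 1.56-fold. Towards the male pool the count of 1 became 2 under each of these filters. It became 0 with normexp, whose offset draws dim spots together, and 0 among members brighter than the median probe. Without the outlying bands, which take out the Tnfrsf13c spot, it was also 0. The difference of Tnfrsf13c ran from -1.92 to -0.52, and was -1.13 with spike-ins. The brightest probe of Fas alone gave -0.16, under 2 spot SDs. Without the bands 26 members were measured, and 28 when Tnfaip genes were left out. Counts over 2 spot SDs, recomputed after seeing the data with the spot SD of each setting, were 4 (female) and 8 (male). With spike-ins they were 30 and 1, over the 9 brighter members 1 and 5. Without the bands they were 2 and 6, and with outlier spots kept, which widens the spot SD, 1 and 6. Normexp gave 3 and 9, losing Tnfrsf13b and Tnfaip8l2 and adding Tnfsf4 and Tnfaip8l1. Scaling by the median lost Ltbr and Tnfaip8l2 towards the male pool and added Tnfrsf21 towards the female pool. For 21 of 34 members the spot SD was 0.15 or 0.31, so small differences were not detectable.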

Other observations

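Several family genes carry names that the naming rule does not take. Cd70, a ligand that costimulates T cells, read 73.2 in the male pool and 102 in the female pool, a difference of 0.50 with a spot SD of 0.15. Its receptor Cd27 read 27.5 and 23.0, a difference of -0.23 with a spot SD of 0.31. Ligand and receptor thus pointed in opposite directions, the ligand by over 2 spot SDs. Ngfr, the neurotrophin receptor p75 and a death domain receptor, read 1475 and 1239, a difference of -0.23. The ectodysplasin gene Eda read 16.2 and 17.9, a difference of 0.17, and its receptor gene Edar 40.7 and 38.2, a difference of -0.067. Relt, an orphan receptor gene, had a difference of -0.064. Cd40lg, the ligand of Cd40, was not well above background in either pool, at 2.56 and 1.89. Of these 7 genes, 6 were measured in both pools, with a median of -0.066.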
